A study of Caenorhabditis elegans with 3 samples.

Results

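Molecular chaperones bind unfolded proteins and help them to fold, to stay soluble or to be taken apart again. The HSP70 proteins hold short stretches of unfolded chain in a cycle driven by ATP, and J-domain proteins (DNJ in Caenorhabditis elegans) bring them their substrates and trigger that cycle. The CCT chaperonin is a ring-shaped chamber in which actin and tubulin fold, and prefoldin is a small complex that carries unfolded chains to it. Small heat shock proteins (HSPs) hold aggregating proteins without ATP, and several of their genes are known to be strongly induced by heat. In the germline, these genes serve cells that divide, pass through meiosis and load oocytes with maternal RNA and protein.

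The set described here held 62 of the 20362 protein-coding genes in a table of 46739 genes. Members were chosen by symbol, as protein-coding genes named hsp, dnj, cct or pfd with a number, without the endoplasmic reticulum (ER) genes hsp-3 and hsp-4. There were 19 hsp, 29 dnj, 8 cct and 6 pfd genes. The rule used no measured value. It does not reach the cytosolic HSP90 gene, which the table lists as daf-21, nor small HSP genes of other names such as sip-1, and it leaves out the pseudogene hsp-2, which had 1 read in all. No value measured here shows that a member's product acts as a chaperone, and the symbols were taken as they stand.

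The samples were 3 libraries of dissected germline from worms of the wild-type strain N2, the usual laboratory reference, with no treatment named in the labels. They form 1 group, so no contrast between conditions exists and no test was made. The series was made to find transcription factors of the germline. The labels give neither age nor sex, and do not say whether the libraries came from separate animals, so the spread between them may be technical.

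The libraries held 14523486, 15566299 and 16656171 read counts in replicates 1, 2 and 3. All 6 germ cell markers and all 5 oocyte markers had at least 10 CPM (counts scaled to a library total of 1000000) in each library, and of the 4 intestinal markers, elt-2 and ges-1 had means of 0.11 and 0.34 CPM, while the yolk protein genes vit-2 and vit-6 had 116, 484 and 255 CPM and 109, 517 and 267 CPM in replicates 1, 2 and 3. The libraries differed in markers of other cell types. The summed level of the 6 sperm markers was 3379, 361 and 1070 CPM in replicates 1, 2 and 3, and that of 4 hypodermal markers was 526, 39.2 and 102 CPM. The 4 muscle markers summed to 1618, 1150 and 1153 CPM. All 4 gonadal sheath markers and the 2 spermatheca markers were detected. The sheath markers summed to 292, 367 and 220 CPM, and the spermatheca markers to 17, 15.7 and 10.6 CPM. Ribosomal RNA genes took 7.24%, 9.04% and 4.61% of the counts. In RNA of a whole tissue, fewer cells of a type and less RNA per cell cannot be told apart. The chaperone genes together took 0.958%, 0.97% and 0.955% of all counts, ribosomal RNA included, almost the same share in each library. Within this sum the families moved in opposite ways. The hsp genes took 0.438%, 0.399% and 0.43%, and the cct genes 0.239%, 0.228% and 0.237%, both lowest in replicate 2. The dnj genes took 0.178%, 0.195% and 0.19%, and the pfd genes 0.101%, 0.148% and 0.0981%, both highest there.

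Most of these genes were detected, and the exceptions were nearly all small HSP genes. A gene was called detected when each library gave it 1 CPM or more, and 51 of the 62 genes met this (82.3%), against 40.2% of all protein-coding genes. At 10 CPM in every library there were 44 (71%, against 26.6% of all protein-coding genes), and at 100 CPM there were 18 (29%, against 7.03%). All 8 cct and all 6 pfd genes were detected, as were 28 of 29 dnj genes and 9 of 19 hsp genes. Of the 11 genes that were not detected, 10 were small HSP genes and the other was dnj-24. The median of the mean CPM over the 62 genes was 38, against 0.612 over all protein-coding genes. These shares are descriptions of 1 set of libraries, in which genes do not serve as replicates, and no test was run on them.

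Levels of different genes were compared as TPM, which divides counts by the summed exon length of the gene before scaling to 1000000 in all. On that scale 23 of the 62 genes lay in the top 10 percent of protein-coding genes. The median TPM was 32.4 for all 62 genes, 176 for the cct, 143 for the pfd, 31.4 for the dnj and 1.55 for the hsp genes, against 0.585 for all protein-coding genes. The hsp genes spanned the widest range, from 0 to 1531 TPM.

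The most abundant member was hsp-1 (WBGene00002005, chromosome IV, 17278959 to 17281330 on WBcel235), the constitutive cytosolic HSP70. It had 3101, 2878 and 2925 CPM in replicates 1, 2 and 3, the 26th highest mean among protein-coding genes. The libraries lay close together, with a mean of 2968 ± 118 CPM (SD, n = 3), and this gene alone took 32.4%, 29.7% and 30.6% of all reads of the 62 genes. Per length it reached 1531 ± 27.6 TPM. Its partner hsp-110 (WBGene00016250, chromosome III, 8443910 to 8446909), an HSP110 that exchanges the nucleotide of HSP70, had 466, 408 and 473 CPM. The hsp-1 level exceeded that of hsp-110 by 8.64 ± 0.565 times on the TPM scale, a ratio between 8.06 and 9.18 in the 3 libraries.

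The heat-inducible cytosolic HSP70 gene hsp-70 (WBGene00002026, chromosome I, 9320325 to 9322519) was detected at a low level. It had 3.31, 1.61 and 2.4 CPM, the lowest mean of any detected member, and its TPM was 931, 1778 and 1209 times below that of hsp-1.

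The cytosolic HSP90 gene daf-21 (current symbol hsp-90) is outside the 62 genes by its name. It had 4663, 4421 and 3988 CPM and 1973 ± 96.8 TPM, above hsp-1 in each library on both scales. Of 8 genes for co-chaperones of HSP90, all were detected and 5 had at least 100 CPM in each library, with a median of 165 TPM against 0.585 TPM for all protein-coding genes. The p23 gene daf-41 (ZC395.10 in the table) was the highest at 373 ± 42.3 TPM. The scaffold gene sti-1, which links HSP70 to HSP90, had 220 ± 53.3 TPM, and fkb-6, ahsa-1 (C01G10.8 in the table), which stimulates the HSP90 ATPase, chn-1, a ubiquitin ligase, and cdc-37, which brings kinases to HSP90, had 204, 179, 151 and 68.1 TPM. The phosphatase gene pph-5 had 3.83 ± 0.982 TPM and the myosin chaperone gene unc-45 the lowest level, 1.76 ± 0.249 TPM. Among HSP70 partners, hip-1 had 111 ± 17.2 TPM, the nucleotide exchange factor gene bag-1 46.9 ± 8.42 TPM and unc-23 2.15 ± 0.783 TPM.

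**Figure D1:**
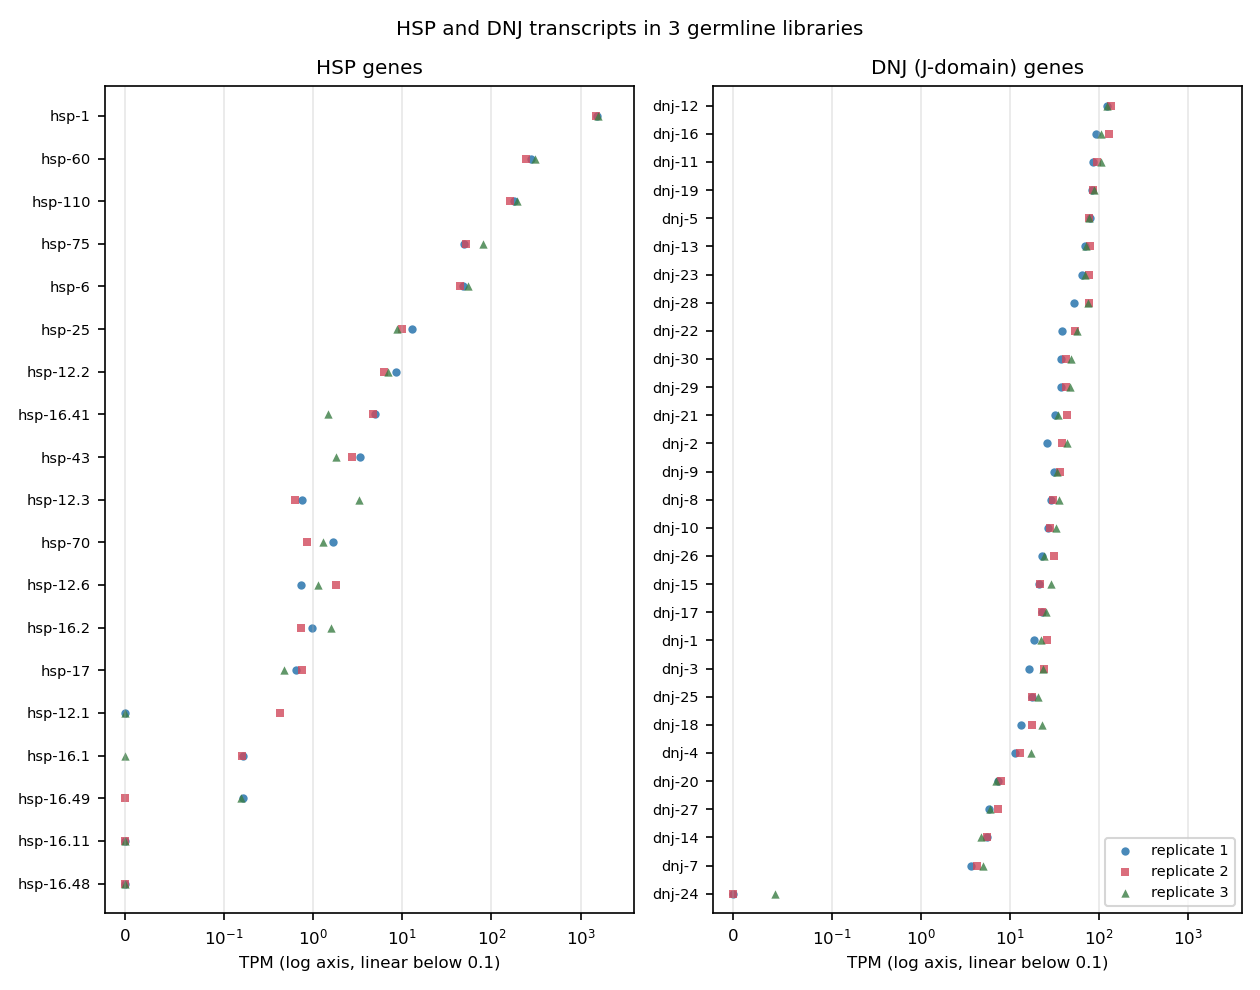
TPM of the 19 HSP genes and the 29 DNJ genes in each of the 3 germline libraries, on a log axis that is linear below 0.1, ordered by the mean. The HSP genes run from hsp-1 at 1531 TPM down to hsp-16.11 and hsp-16.48 at 0, whereas 28 of the 29 DNJ genes lie between 4.28 and 126 TPM.

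Mitochondria have chaperones of their own, and all 3 among the members exceeded 100 CPM in every library. The chaperonin gene hsp-60 (WBGene00002025, chromosome III, 1619742 to 1625803) had 567, 477 and 601 CPM, the mitochondrial HSP70 gene hsp-6 had 116, 102 and 123 CPM, and the HSP90 relative hsp-75 had 104, 103 and 158 CPM. All 3 were highest in replicate 3, as were 2961 of the 5948 detected protein-coding genes with a mean of at least 10 CPM. Per length, hsp-60 reached 277 ± 34.5 TPM, which was 5.59 ± 0.143 times the level of hsp-6, while the ranges of hsp-75 and hsp-6 overlapped. Partners in the same compartment were present, Y22D7AL.10, which encodes the lid of the chaperonin (HSP10), at 411 ± 59.4 TPM, and C34C12.8, a GrpE nucleotide exchange factor for the mitochondrial HSP70, at 45.8 ± 7.31 TPM. Among J-domain genes with a known mitochondrial role, dnj-10, a relative of human DNAJA3, had 29 ± 3.08 TPM and dnj-21, which acts at the import motor, had 36.6 ± 6.05 TPM.

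The small HSPs were the group with the lowest levels. Of 13 genes, 3 were detected, and none reached 10 CPM in every library. Their median was 1.1 TPM. The highest was hsp-25 (chromosome X, 6034463 to 6039644), whose product is known from muscle, at 14, 10.3 and 9.01 CPM. Then came hsp-12.2 at 4.27, 2.96 and 3.24 CPM and hsp-43 at 4.48, 3.53 and 2.28 CPM. All 3 were highest in replicate 1, the library in which the summed levels of the muscle, sperm, hypodermal and spermatheca markers were also highest. The summed oocyte, gonadal sheath, intestinal and neuron markers were highest in replicate 2, and those of germ cells in replicate 3. Of the 5948 detected protein-coding genes with a mean of at least 10 CPM, 1100 were highest in replicate 1. The means of hsp-12.2 and hsp-43 lay below that level. All 4 muscle markers were detected, with unc-54 at 191, 122 and 112 CPM, and 5 of the 6 sperm and 2 of the 4 hypodermal markers were, while the hypodermal markers rol-6 and dpy-7 had means of 0.12 and 0.0459 CPM. The part of other cell types in the levels of hsp-25 and hsp-43 was not tested.

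The other small HSP genes lay under the detection limit or at it. The genes hsp-12.3, hsp-12.6 and hsp-17 had means of 0.95, 0.872 and 0.323 CPM, and hsp-12.1 had 3 reads, all in replicate 2. For hsp-12.3 the libraries differed by a factor of 5.14, with 1.98 CPM in replicate 3 against 0.482 and 0.385 CPM in the others, a difference of 33 reads against 7 and 6. The members nearest the limit were hsp-70 and hsp-43 above it, with 1.61 and 2.28 CPM in their lowest libraries, and hsp-16.41 and hsp-12.6 below it, with 0.841 and 0.551 CPM.

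The heat-inducible hsp-16 genes form head-to-head pairs on chromosome V. The pair hsp-16.2 and hsp-16.41 lies at 1804334 to 1805875 with 220 bp between the genes. The other 4 lie within 9087293 to 9090604 as the divergent pairs hsp-16.1 with hsp-16.48, 348 bp apart, and hsp-16.49 with hsp-16.11, 310 bp apart. None of the 6 was detected. The highest, hsp-16.41, had 3.03, 2.76 and 0.841 CPM, and its divergent neighbour hsp-16.2 had 0.551, 0.385 and 0.841 CPM. In the duplicated cluster, hsp-16.1 had 1, 1 and 0 reads, hsp-16.49 had 1, 0 and 1, and hsp-16.11 and hsp-16.48 had none in any library. A count of 0 allows up to 0.207, 0.193 and 0.18 CPM in the 3 libraries (3 reads, counting error only). The reference names now give hsp-16.11 the symbol hsp-16.1 and hsp-16.49 the symbol hsp-16.48, and these are near-identical copies. The treatment of reads that match several places is not given in the sources used here, so a low count in that cluster cannot be read as low expression.

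The low level of the named small HSPs did not extend to every gene of that kind. Of 5 small HSP domain genes of other names, sip-1, known for its expression in oocytes and embryos, had 6035, 7559 and 6644 CPM. It was the 13th most abundant protein-coding gene by CPM and the 6th by TPM, at 11299 ± 1538 TPM. Its TPM was 295, 458 and 448 times the summed TPM of the 13 hsp-named small HSP genes in replicates 1, 2 and 3. The other 4 had between 0.316 and 1.71 TPM, and 2 of them, F08H9.3 and F08H9.4, were not detected. The regulators of the heat shock response were present, with the transcription factor gene hsf-1 at 65, 65.7 and 65.3 CPM, almost level across libraries. Per length it had 28.2 ± 1.09 TPM, its inhibitor gene hsb-1 68.4 ± 10.4 TPM, ddl-1 20.2 ± 3.61 TPM and ddl-2 0.642 ± 0.147 TPM.

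**Figure D2:**
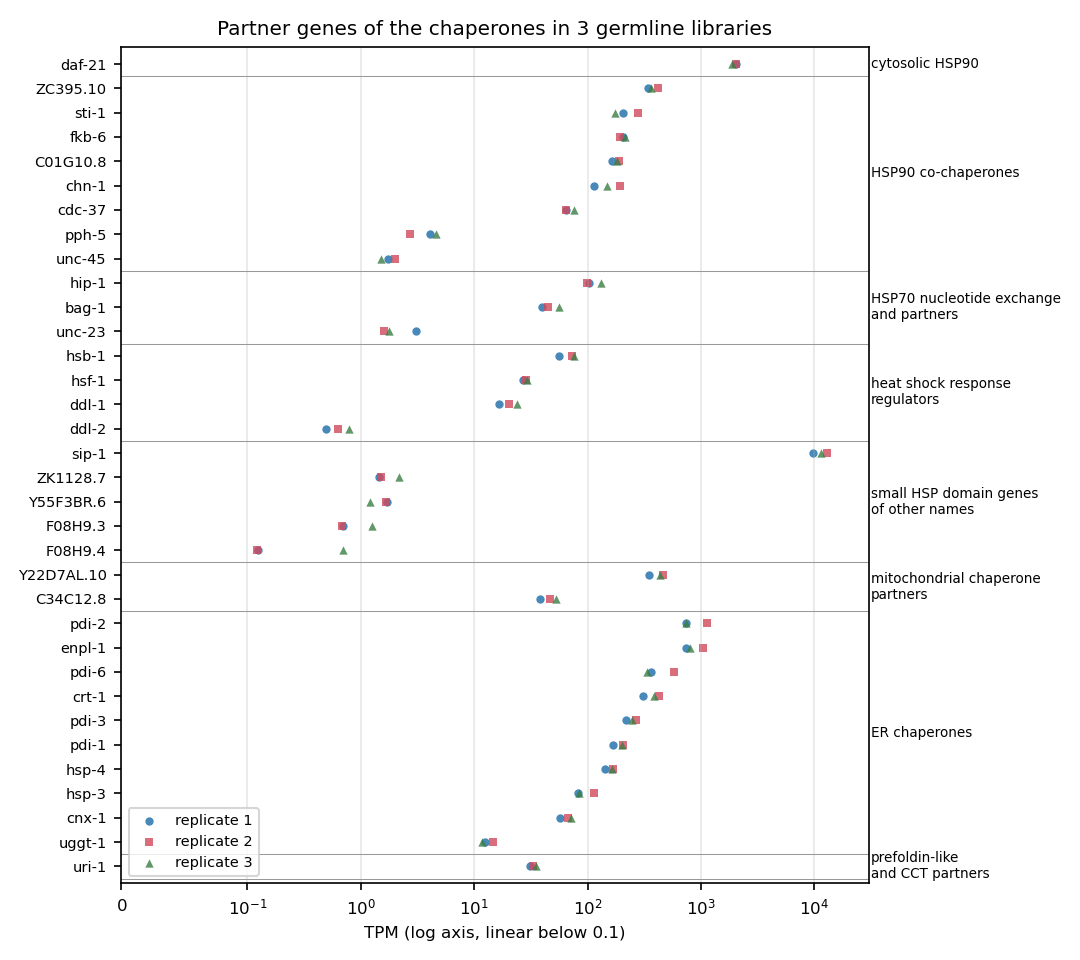
TPM of 34 genes that work with the chaperones, in each of the 3 germline libraries, grouped by list, on a log axis that is linear below 0.1. The small HSP gene sip-1 lies at 11299 TPM and the HSP90 gene daf-21 at 1973 TPM, whereas unc-45 and the other small HSP domain genes lie under 2 TPM.

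J-domain genes were widely expressed at intermediate levels. Of the 29, 28 were detected. In every library, 25 of them reached 10 CPM and 5 reached 100 CPM. Their levels formed a continuum, so that in the TPM order of the 28 detected genes, 24 of the 27 neighbouring pairs had overlapping ranges over the libraries. By counts the first was dnj-5, at 289, 270.0 and 259 CPM, but its exons sum to 3761 bp, and per length it had rank 5 in the family at 77.5 ± 1.58 TPM. With the length of the longest transcript instead, dnj-5 had 90.7 TPM, above dnj-19 at 84 TPM. The lowest was dnj-24, with a single read in replicate 3.

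Compartments are given here from general knowledge for single genes, which were chosen after their values were seen, and the family was not sorted by compartment. The cytosolic class A gene dnj-12 (chromosome I, 14756904 to 14758790), a relative of human DNAJA1, had 197, 209 and 187 CPM and the highest level per length, 126 ± 7.67 TPM. The other class A gene dnj-19 had 123, 120.3 and 121 CPM, and dnj-13, a class B gene related to human DNAJB1 that is known to work with hsp-110 in taking aggregates apart, had 93.8, 101 and 90.7 CPM. They reached 84.6 ± 2.13 and 73 ± 4.88 TPM. The hsp-1 level exceeded the mean level of these 3 partners by 16.9, 15.1 and 16.6 times on the TPM scale in replicates 1, 2 and 3. Between dnj-12 and dnj-19 came dnj-16, at 110 ± 18.8 TPM and highest in replicate 2, and dnj-11, a ribosome-associated J protein related to human DNAJC2, at 172, 180 and 197 CPM and 95.3 ± 9.89 TPM. The ranges of dnj-12, dnj-16 and dnj-11 overlapped from each to the next.

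Among 4 J-domain genes picked here from those known in the ER, dnj-29 stood above the other 3. They were picked after their values were seen, and whether other J proteins of the ER lie between them was not examined. The SEC63 gene dnj-29, a part of the protein translocation channel, had 98.7, 105 and 114.6 CPM and 41.9 ± 4.55 TPM. In the ER lumen, the values were 7.38 ± 0.524 TPM for dnj-20 (DNAJB11 in human), 6.36 ± 0.815 TPM for dnj-27 (DNAJC10 in human) and 4.28 ± 0.638 TPM for dnj-7 (DNAJC3 in human), the lowest of the 28 detected. The highest library of each of these 3 lay below the lowest library of dnj-29. The ER chaperones themselves were abundant, as all 10 genes of that list were detected, with a median of 218 TPM, led by pdi-2, a protein disulphide isomerase gene, at 866 ± 226 TPM and the GRP94 gene enpl-1 at 859 ± 157 TPM. The HSP70 genes of the ER, hsp-4 and hsp-3, had 158 ± 14.6 and 93.2 ± 17.1 TPM. The lowest of the list was uggt-1, a folding sensor of glycoproteins, at 13 ± 1.55 TPM.

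Other J proteins with known tasks lay between these limits. The auxilin gene dnj-25, which acts in the uncoating of clathrin vesicles, had 18.7 ± 1.76 TPM. The cysteine string protein gene dnj-14, best known from synapses, had 6.27, 6.04 and 4.98 CPM, and part of its exons (6.11%) overlaps dhhc-10 on the other strand. The DNAJC9 relative dnj-23 had 69.9 ± 5.87 TPM.

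The CCT chaperonin is built from the products of 8 genes, each present once in a ring, so its transcripts can be read against each other. Of the 8, 6 lay within a narrow band, and cct-3 and cct-8 lay far below it. The gene cct-4 (chromosome II, 8283667 to 8285711) had 527, 501 and 507 CPM, and cct-5 (chromosome III, 4499188 to 4508114) had 525, 509 and 513 CPM. Then came cct-2 with 375, 351 and 384 CPM, cct-1 with 335, 313 and 320.1 CPM, cct-6 with 303, 285 and 313 CPM and cct-7 with 298, 286 and 301 CPM. The 6 varied little between libraries, with a median ratio of highest to lowest library of 1.06, against 1.24 for all detected protein-coding genes with a mean of at least 10 CPM. Over all 8 subunits the median was 1.08, with cct-3 at 1.18 and cct-8 at 1.12. The comparison was not matched for level.

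Per length the order was cct-4 at 295 ± 5.12, cct-5 at 286 ± 6.51, cct-2 at 205 (197 to 219 over the libraries), cct-1 at 185 ± 3.75, cct-6 at 168 ± 10.4 and cct-7 at 140 ± 6.13 TPM. On summed exon lengths, the ranges of cct-4 and cct-5 overlapped, and those of the other neighbours in this order did not. The highest exceeded the lowest of these 6 by 2.11 ± 0.0548 times on those lengths. With the length of the longest transcript instead, cct-7 had a mean of 161 TPM, closer to cct-6 at 167 TPM.

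In contrast, cct-3 (WBGene00018782, chromosome II, 2233540 to 2243539) had 19.1, 20.04 and 16.9 CPM and 7.68 ± 0.592 TPM. The gene cct-8 (WBGene00021934, chromosome IV, 1087108 to 1093920) had 12.7, 13 and 11.6 CPM and 5.63 ± 0.282 TPM. The lowest of the other 6, cct-7, exceeded cct-3 by 18.3 ± 2.05 times on the TPM scale, and the mean of the 6 exceeded cct-3 and cct-8 by 27.9 ± 2.91 and 38 ± 2.9 times. Both gaps were many times the spread between libraries. The coding lengths of the 8 genes are alike, from 1587 to 1647 bp, and no exon of cct-3 or cct-8 overlaps an exon of another gene in the annotation used here. The summed exons, by which TPM divides, are longest for these genes, 2602 bp for cct-3 and 2358 bp for cct-8. For the other 6 they are 1854 to 2259 bp. The introns of the longest transcript sum to 7398 bp for cct-3 and 4455 bp for cct-8. For the others they sum to 6996 bp (cct-5), 1315 bp (cct-7), 291 bp (cct-1), 246 bp (cct-6), 191 bp (cct-4) and 149 bp (cct-2). The annotation release with which the reads were counted is not given in the sources used here, so an effect of its gene models on these counts was not tested.

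Prefoldin has 6 subunits, of which pfd-3 and pfd-5 encode the alpha type and the others the beta type. Their transcripts were less even than those of the 6 abundant CCT subunits. The highest was pfd-6 (WBGene00009004, chromosome I, 7282964 to 7283762), with 493, 864 and 464 CPM. Next was pfd-3 (WBGene00006889, chromosome I, 12728137 to 12729898), with 306, 312 and 315 CPM. The others were lower. The gene pfd-4 had 67.2, 123 and 53 CPM, pfd-5 had 59.6, 86.1 and 56.4 CPM, pfd-2 had 66, 67.2 and 68.1 CPM, and pfd-1 had 21.8, 25.8 and 25.6 CPM.

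Per length, pfd-6 reached 1143 ± 431 TPM and pfd-3 371 ± 18.4 TPM, and their ranges did not overlap. Then came pfd-4, pfd-2 and pfd-5 at 159 ± 73.8, 127 ± 6.38 and 122 ± 30.7 TPM, whose ranges overlapped from each to the next. The lowest was pfd-1 at 56.4 ± 7.05 TPM, apart from the rest. The level of pfd-6 exceeded that of pfd-1 by 18.5, 27.3 and 14.8 times in replicates 1, 2 and 3. The related gene uri-1, which encodes a prefoldin-like protein, had 32.9 ± 2.01 TPM.

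**Figure D3:**
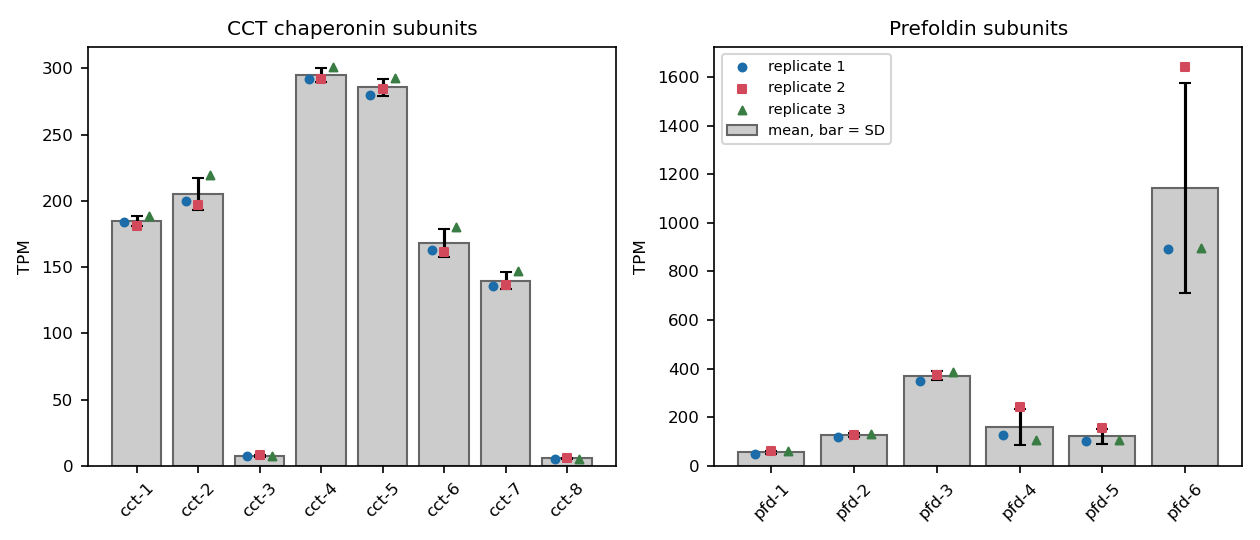
TPM of the 8 CCT and the 6 prefoldin subunit genes, with bars for the mean and error bars for the SD of 3 germline libraries, and points for each library. The subunit genes cct-3 and cct-8 lie at 7.68 and 5.63 TPM beside 6 subunits between 140 and 295 TPM, and pfd-6 stands above the other prefoldin genes with its highest value in replicate 2.

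The spread between libraries was small for most members and fell on a few. Of the 46 detected members with a mean of at least 10 CPM, 7 differed by a factor of at least 1.5 between their highest and lowest libraries (15.2%, against 18.9% of all protein-coding genes of that level). The smallest ratios were those of dnj-19 (1.03), pfd-3 (1.03) and pfd-2 (1.03). The 5 largest were those of pfd-4 (2.33), pfd-6 (1.86), dnj-18 (1.58), hsp-25 (1.56) and dnj-2 (1.56), followed by hsp-75 (1.53) and pfd-5 (1.53). Of these, dnj-18 had 10.9, 13.7 and 17.3 CPM and dnj-2 had 31.7, 44 and 49.4 CPM, both highest in replicate 3 as was hsp-75, while hsp-25 was highest in replicate 1.

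The prefoldin genes pfd-4, pfd-5 and pfd-6 were highest in replicate 2, by 1.03, 0.57 and 0.85 on the log2 scale over the mean of the other libraries. Such a pattern, with a ratio of at least 1.5 and the highest value in replicate 2, was met by 3 of the 46 members (6.52%) and by 6.44% of all protein-coding genes of that level, so the share was that of the background. In all, 18 of the 46 were highest in replicate 2 (39.1%, against 31.7%), including 12 dnj genes, 4 pfd genes, and cct-3 and cct-8. With the other library sizes tried (TMM, DESeq2 and protein-coding total, described below), 6 of 6 prefoldin genes were highest in replicate 2. So were 50.1%, 41.7% and 40.1% of all protein-coding genes of that level. Those added were pfd-2 and pfd-3, which differed between libraries by a factor of only 1.03 on column totals.

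Short genes were more often highest in replicate 2. Of all detected protein-coding genes with a mean of at least 10 CPM, 44.1% of the 524 with under 600 bp of exons were highest there, against 18.5% of the 917 with 3000 bp or more. Of the 6 members with under 600 bp, 5 were highest in replicate 2, namely pfd-1, pfd-4, pfd-5, pfd-6 and dnj-21. The median log2 ratio to the other libraries was 0.47 for these 6 and 0.05 for all genes of that length. The part of transcript length in the values of prefoldin was not tested beyond these values.

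**Figure D4:**
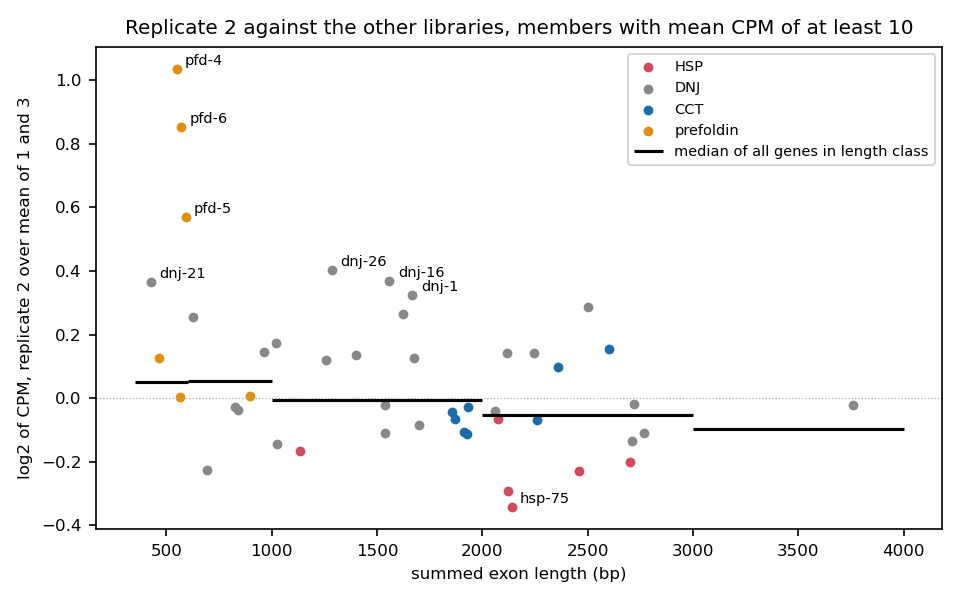
Log2 ratio of CPM in replicate 2 over the mean of replicates 1 and 3 against summed exon length in bp, for the 46 members with a mean of at least 10 CPM, coloured by family, with black lines for the median of all protein-coding genes of that level in 5 length classes. The genes pfd-4, pfd-6 and pfd-5 stand highest at 1.03, 0.85 and 0.57, while the medians of all genes fall from 0.05 under 600 bp to -0.1 at 3000 bp and above.

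On the X chromosome, where transcription is known to be kept low for much of germline development, there were 4 members, dnj-7, dnj-14, hsp-25 and hsp-43. All 4 were detected, against 32.8% of X-linked protein-coding genes. None reached 10 CPM in every library, a level that 13.2% of X-linked protein-coding genes reached. Their means lay between 2.63 and 10.4 TPM. Of the 47 detected members on autosomes, 6 had a mean below the highest X-linked one, namely cct-3, cct-8, dnj-20, dnj-27, hsp-12.2 and hsp-70. Over all protein-coding genes the median was 0.206 TPM on X and 0.717 TPM on autosomes, and among detected genes 5.84 and 27.5 TPM.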

How the data were processed

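RNA of 3 dissected N2 germlines was copied and amplified with a SMART-Seq v4 kit, per the labels' protocols. The values deposited by the authors are raw read counts per gene, 1 column per library. STAR, featureCounts and the build WBcel235 are named in the submitters' processing notes. For these steps, neither versions nor the annotation release is given in the sources used here, nor are strand use and the treatment of reads that match several places or genes. Exons of 16 members overlap those of another gene, by at most 13% of exon length. If strand was not used, reads in these overlaps cannot be assigned. For dnj-23, dnj-24 and hsp-12.6 the other gene lies on the same strand, so strand would not separate them.

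CPM were computed on column totals, and TPM on the union of exons in the Ensembl release 115 annotation of WBcel235, in which 20116 of the 20362 protein-coding genes and all 62 members had a length (Python 3.11.15, pandas 2.3.3). A gene was called detected at 1 CPM in each library. Since 1 CPM stood for 14.5 to 16.7 reads, low members rest on few reads. Amplified reads are not independent molecules, so limits cover counting error only. The libraries were not duplicates, as a chi-square of each pair's counts gave 65.5 to 107 per degree of freedom. The biological coefficient of variation was 0.348 (edgeR 4.0.16, intercept only), with a median per gene of 0.222 for the 51 detected members and 0.259 for 8384 detected genes. Of these steps, only the detection call, the estimate of variation and a ratio between libraries were tried on simulated counts. Those counts were given less spread between libraries than the data had.

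Members and lists were chosen with earlier results of these data known. Values per library are given for the 3 highest members and the lowest of each role class, for those with the 5 largest and 3 smallest library ratios, for all cct, pfd and hsp-16 genes, and for those nearest the detection limit. Others named were chosen after their values were seen. Of the partner lists, 34 of 35 genes were matched by symbol or current symbol, pdcl-1 was not matched, and stip-1 was dropped as not an HSP70 partner. No sequences are printed, as none were used here. Alternatives were other CPM minima, a read minimum, TMM and DESeq2 1.42.0 library sizes, the protein-coding total, a pseudocount of 0.1 in place of 1, longest-transcript lengths and leaving out each replicate.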

Additional observations from a re-analysis of the deposited data

How the results depend on the processing

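Every count of detected members, over all 62 genes and in each of the 4 families, stayed within 1.5 times its value under each CPM minimum, read minimum, library size and left-out replicate tried, as did the counts at 10 and at 100 CPM under the library sizes, the rule of 2 of 3 libraries and the left-out replicates. Counts near the number of genes in the set could not rise by that factor. The hsp count was at its edge, with 6 in place of 9 at a minimum of 5 CPM. Lost there were hsp-12.2, hsp-43 and hsp-70. Some medians moved by more than the spread between libraries. Over detected members alone, the median CPM was 66.6 in place of 38 for all members and 114 in place of 2.21 for the hsp genes, since 10 small HSP genes drop out. With a pseudocount of 0.1, the median log2 value of the hsp genes was 1.03 in place of 1.601. Scaled to the protein-coding total, which raises the median of all genes of at least 10 CPM by 0.11 on the log2 scale, the median CPM of the cct genes was 336 in place of 311. On that total, the mean CPM of 22 members also moved by more than the SD, as for hsp-1 at 3206 in place of 2968. With longest-transcript lengths, the mean TPM of 2 members moved by more than the SD. That of cct-7 was 161 in place of 140, and that of dnj-5 was 90.7 in place of 77.5. The ratios between subunits were recomputed under alternatives added after seeing the data, with cct-7 over cct-3 between 17.2 and 21.2, cct-7 over cct-8 between 23.8 and 28.9, and pfd-6 over pfd-1 between 16.42 and 23.4. The number of members highest in replicate 2 was 25, 21 and 20 of 46 with TMM, DESeq2 and protein-coding sizes in place of 18, against 50.1%, 41.7% and 40.1% of all genes of that level. No paired analysis was possible because the samples form 1 group. The design cannot show a difference between conditions, and a value under 1 CPM in a library rests on fewer than 17 reads there.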

Other observations

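Members of different families lie close together at a few places. On chromosome IV, dnj-2 and pfd-4 are divergent neighbours with 1226 bp between them, and their levels followed the libraries differently, with dnj-2 highest in replicate 3 and pfd-4 in replicate 2. The adjacent genes hsp-12.3 and hsp-12.6 on the same chromosome, 721 bp apart on the same strand, were both under the detection limit.

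The detected members had a median of 5 exons in their longest transcript, and the 11 members that were not detected had a median of 2. The small HSP genes have coding lengths from 327 to 1179 bp and the prefoldin genes from 351 to 555 bp, and these ranges overlap.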
